A study of Mus musculus with 36 samples.

Results

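Transcripts of 10 CC chemokine genes were followed in 36 RNA-seq libraries of ligated mouse carotid artery: Ccl2, Ccl3, Ccl4, Ccl5, Ccl6, Ccl7, Ccl8, Ccl9, Ccl11 and Ccl12. The genes were taken by symbol from a table of counts for 49568 gene symbols, with no cut on their values. Earlier results of these data were known when the set was chosen. All 10 passed the filter on low counts, which left 18628 symbols to be tested.

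CC chemokines are small secreted proteins, named for a pair of adjacent cysteines, that guide leukocytes along a concentration gradient through G protein-coupled receptors. The monocyte chemoattractants Ccl2, Ccl7 and Ccl12 act mainly on CCR2, and in the mouse Ccl8 acts on CCR8. Ccl11, eotaxin, attracts eosinophils through CCR3. The macrophage inflammatory proteins Ccl3 and Ccl4, the related Ccl6 and Ccl9, and Ccl5 (RANTES) attract monocytes, T cells and other leukocytes. In an artery whose flow has been stopped by ligation, the wall remodels and takes up leukocytes, and Ccl2 is the best known of the signals that bring monocytes in.

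Each library came from the ligated left carotid of 1 mouse, either C57BL/6J (B6) or 129X1/SvJ (129X1), collected 14 days after ligation. Mice of each strain received vehicle at 2 mL/kg/day, the angiotensin receptor blocker valsartan at 27 mg/kg/day, or sacubitril/valsartan, which adds a neprilysin inhibitor, at 60 mg/kg/day. Treatment was prophylactic, begun before ligation and lasting 16 days, or therapeutic, begun after it and lasting 7 days. These choices give 12 groups of 3 mice, with no unligated artery among them, so every value below is from a ligated vessel and every group carries the ligation. No genotype beyond strain is stated, and the age and sex of the mice are not given in the sources used here.

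The libraries held 18.96 to 28.97 M counts (median 22.78 M), and levels are given as CPM, counts relative to the library's total after scaling by edgeR's TMM factors. Markers of smooth muscle, endothelium and fibroblasts were present in every library, with summed levels of 197 to 3378 CPM for smooth muscle. Transcripts of neighbouring tissue were uneven: the thymocyte gene Rag1 reached 10 CPM or more in 16 libraries, 4 of them B6 and 12 129X1. Replicate 1 of both B6 valsartan groups stood apart, with Rag1 at 1591 CPM in the prophylactic and 869 CPM in the therapeutic library. Those same libraries had the lowest or second lowest level of Ccl8, Ccl11 and Ccl12 among all 36, and the therapeutic one also the lowest Ccl6 and Ccl9. In these whole-artery samples, fewer cells of a type and less RNA per cell cannot be told apart.

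All 10 genes lie on chromosome 11 in 2 clusters of 5 (GRCm38, GENCODE M21 positions, all protein coding). The cluster of monocyte chemoattractants and eotaxin spans 81.2 kb, with Ccl2 at 82035571 to 82037453, Ccl7 at 82045712 to 82047525, Ccl11 at 82057823 to 82062955, Ccl12 at 82101845 to 82103400 and Ccl8 at 82115185 to 82116799, all on the plus strand. The cluster of macrophage inflammatory proteins spans 138.9 kb. It holds Ccl5 at 83525778 to 83530518, Ccl9 at 83572919 to 83578636, Ccl6 at 83587882 to 83593087 and Ccl3 at 83647844 to 83649355 on the minus strand, with Ccl4 at 83662584 to 83664683 on the plus strand. No exon of the 10 overlapped an exon of another gene.

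Promoter sequence from RefSeq (GRCm38.p6) was matched for 5 of the 10: Ccl3, Ccl6, Ccl8, Ccl9 and Ccl12. The 150 bases before each RefSeq start are shown for these 5. For Ccl3 that start adjoins 83649379 and differs from the GENCODE start at 83649355, so its distances below are from the RefSeq start. Any part of this sequence in the strain difference was not tested. Each runs 5′ to 3′ on the gene's own strand, and capitals mark matches to the motifs described after them. The windows are chr11:82115035-82115184 (plus) for Ccl8, chr11:82101695-82101844 (plus) for Ccl12, chr11:83578637-83578786 (minus) for Ccl9, chr11:83593088-83593237 (minus) for Ccl6 and chr11:83649379-83649528 (minus) for Ccl3.
Ccl8: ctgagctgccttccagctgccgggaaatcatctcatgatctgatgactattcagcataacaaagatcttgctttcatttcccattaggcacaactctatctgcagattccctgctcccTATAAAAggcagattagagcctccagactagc
Ccl12: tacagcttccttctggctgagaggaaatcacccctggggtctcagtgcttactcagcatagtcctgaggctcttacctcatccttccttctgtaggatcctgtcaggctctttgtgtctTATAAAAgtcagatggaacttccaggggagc
Ccl9: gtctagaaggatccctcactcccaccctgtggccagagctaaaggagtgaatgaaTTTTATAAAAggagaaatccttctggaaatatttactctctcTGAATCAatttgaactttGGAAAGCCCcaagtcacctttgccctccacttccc
Ccl6: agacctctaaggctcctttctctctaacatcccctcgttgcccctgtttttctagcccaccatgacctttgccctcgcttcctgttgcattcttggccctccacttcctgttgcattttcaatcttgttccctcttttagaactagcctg
Ccl3: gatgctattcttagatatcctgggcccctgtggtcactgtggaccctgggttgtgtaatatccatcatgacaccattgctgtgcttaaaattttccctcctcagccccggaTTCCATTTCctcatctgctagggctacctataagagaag

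Motifs were searched on both strands in the 250 bases before the start. A TATA box, TATAAAA, began 32 bases before the start of Ccl8 and 31 bases before that of Ccl12, and 4.98 percent of 32851 windows of that length hold one. In Ccl9 the same letters began 92 bases before the start and overlapped a reverse match. Ccl9 also held the NF-kappaB motif GGNNTTTCC on the reverse strand, 35 to 27 bases before the start, and the AP-1 motif TGANTCA, 53 to 47 bases before it. These motifs occur in 4.93 and 6.75 percent of windows. The interferon-stimulated response element GAAANNGAA (7.13 percent of windows) was matched on the reverse strand in Ccl3, 39 to 31 bases before its RefSeq start. The STAT motif TTCNNNGAA (7.02 percent) was matched in none of the 5. The neighbours Ccl6 and Ccl9 share a run of 13 bases, GCCCTCCACTTCC, which begins 55 bases before the start of Ccl6 and 14 bases before that of Ccl9.

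The 10 genes differed widely in level. Per kilobase of exon, so that genes can be compared, Ccl6 had the highest median over 36 libraries, 76.8 CPM per kb, and Ccl11, Ccl8 and Ccl9 followed with 44.8, 43.7 and 37.8 CPM per kb. Ccl7, Ccl2 and Ccl3 were close together at 10.4, 10.4 and 10.3 CPM per kb, and Ccl4, Ccl12 and Ccl5 were the lowest at 7.83, 4.47 and 2.84 CPM per kb. Neighbours in this order overlapped over libraries. The spread over libraries also differed by gene: the highest library exceeded the lowest 3.27-fold for Ccl11, 14.2-fold for Ccl6, 20.5-fold for Ccl2, 194-fold for Ccl3 and 314-fold for Ccl4. The coefficient of variation was 26.0 percent for Ccl11 and 62.9 to 108.8 percent for the other 9.

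**Figure D1:**
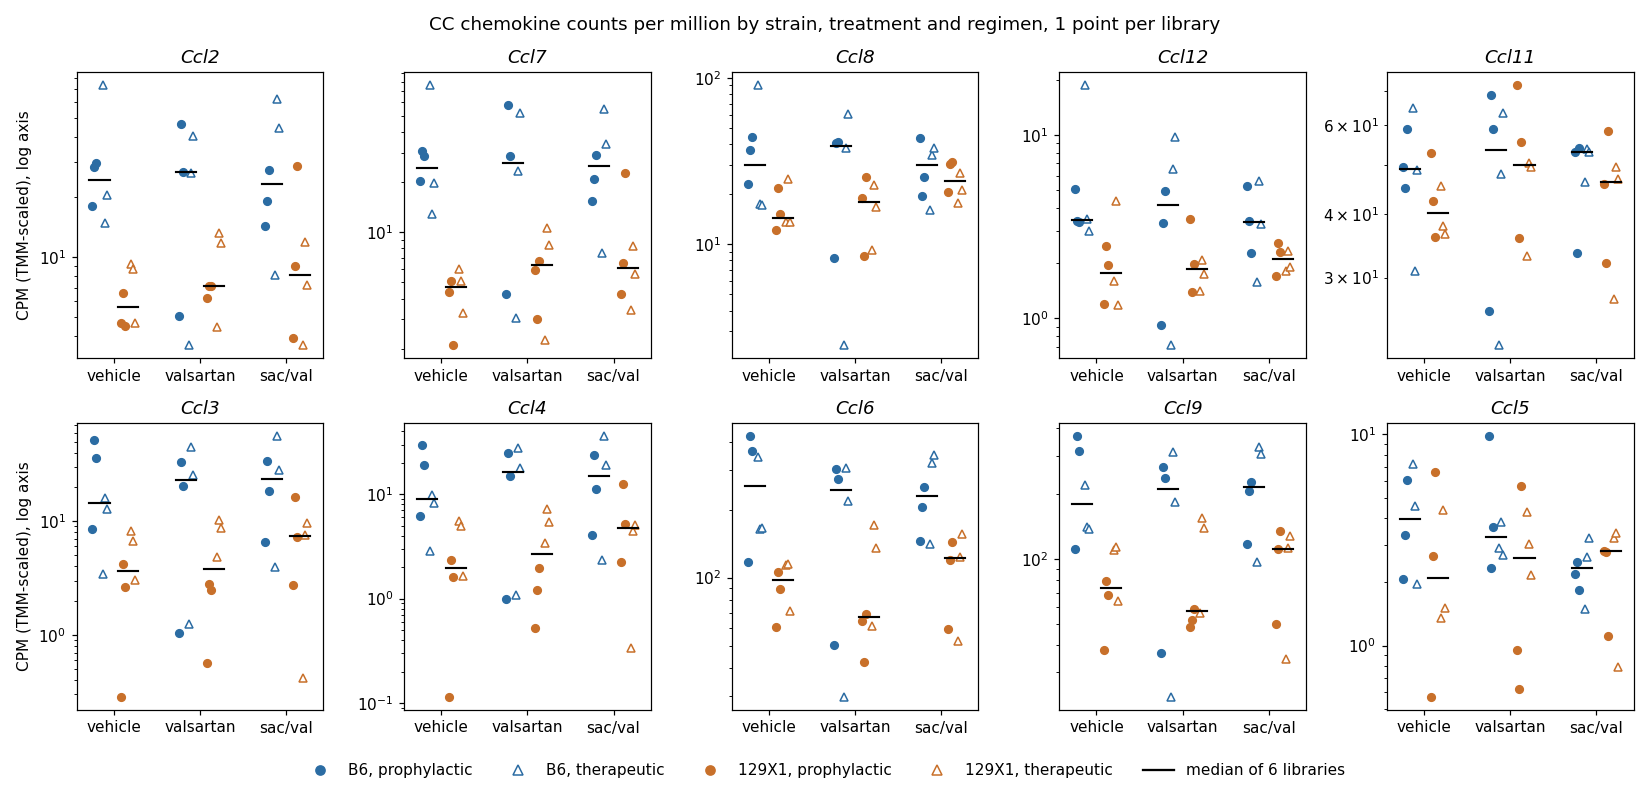
Level of each CC chemokine in CPM (log axis) by treatment, with B6 in blue and 129X1 in orange, 1 point per library and a line at the median of 6 libraries. For 8 of the 10 genes each B6 median lies above each 129X1 median, the exceptions being Ccl5 and Ccl11, and both B6 valsartan libraries of replicate 1 lie below the other 4 B6 valsartan libraries for every gene but Ccl5.

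The chemokines were lower in the ligated artery of 129X1 mice than in that of B6 mice. Over all treatments 8 of the 10 were called lower in 129X1 (18 libraries against 18; edgeR quasi-likelihood test with Benjamini-Hochberg adjustment over all tested genes, threshold 0.05) and none higher. Strain was a broad divider in these data, since 33.8 percent of all tested genes were called, 3044 higher and 3252 lower. The median log2 difference was -1.26 over the 10 chemokines and -0.02 over all tested genes. For 9 of the 10 the mean of log2 CPM was lower in 129X1 in 6 of 6 combinations of treatment and regimen, and for Ccl11 in 4 of 6. The means of CPM itself were nearly equal for Ccl5 in some combinations. Its log2 ratio of 129X1 to B6 was 0.009 under therapeutic valsartan, and 0.04 and 0.01 under prophylactic and therapeutic sacubitril/valsartan.

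Among the monocyte chemoattractants, Ccl7 had the largest difference. Its level ran from 3.04 to 76.4 CPM in B6 (median 25.8) and from 2.10 to 22.8 CPM in 129X1 (median 5.37). It was 4.78-fold lower in 129X1 (log2 difference -2.26, SE 0.36, edgeR adjusted p = 2.74e-05). Ccl2, its neighbour and the main ligand of CCR2, ran from 3.61 to 73.5 CPM in B6 (median 26.8) and from 3.59 to 28.8 CPM in 129X1 (median 7.17). It was 3.42-fold lower (log2 -1.77, SE 0.33, edgeR adjusted p = 0.000177). The strains overlapped for both genes, and 1 of 18 129X1 libraries lay above the B6 median of Ccl2. That library, prophylactic sacubitril/valsartan replicate 3, had 28.8 CPM of Ccl2 and 22.8 CPM of Ccl7.

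Ccl12, the mouse CCR2 ligand at low level, ran from 0.713 to 18.7 CPM in B6 (median 3.39) and from 1.19 to 4.39 CPM in 129X1 (median 1.93), a 2.12-fold lower level (log2 -1.09, SE 0.29, edgeR adjusted p = 0.00524). Ccl8 had the smallest difference that passed. It ran from 2.47 to 90.6 CPM in B6 (median 35.5) and from 8.46 to 31.2 CPM in 129X1 (median 19.8), and was 1.72-fold lower (log2 -0.78, SE 0.29, edgeR adjusted p = 0.0405). No 129X1 library lay above the B6 median of Ccl8, yet the lowest 2 libraries of all were the B6 valsartan libraries named above. When each library was omitted in turn, 20 of the 36 refits no longer called Ccl8, with log2 differences of -0.87 to -0.57 and adjusted p up to 0.11. The libraries whose absence ended it were, in B6, vehicle prophylactic 2 and 3, valsartan prophylactic 2 and 3, sacubitril/valsartan prophylactic 1, vehicle therapeutic 1, valsartan therapeutic 2 and 3 and sacubitril/valsartan therapeutic 2 and 3. In 129X1 they were vehicle prophylactic 1 and 3, valsartan prophylactic 2, sacubitril/valsartan prophylactic 1, vehicle therapeutic 1 and 3, valsartan therapeutic 1 and 3 and sacubitril/valsartan therapeutic 1 and 3. Ccl11, eotaxin, was not called: it ran from 22.1 to 68.8 CPM in B6 and from 27.2 to 72.1 CPM in 129X1 (log2 -0.13, 95% interval -0.43 to 0.17, edgeR adjusted p = 0.544).

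The macrophage inflammatory proteins Ccl3 and Ccl4 differed by about as much as Ccl7. Ccl3 ran from 1.04 to 55.5 CPM in B6 (median 19.4) and from 0.286 to 16.2 CPM in 129X1 (median 4.53), a 4.43-fold lower level (log2 -2.15, SE 0.48, edgeR adjusted p = 0.00113). Ccl4 ran from 0.999 to 35.9 CPM in B6 (median 13.1) and from 0.115 to 12.7 CPM in 129X1 (median 2.87), a 4.49-fold lower level (log2 -2.17, SE 0.46, edgeR adjusted p = 0.000708). The counts behind the lowest libraries were small, 5 reads of Ccl3 and 2 of Ccl4. For both genes the strains overlapped only below the B6 median, which no 129X1 library passed.

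Ccl6 and Ccl9, CCR1 ligands made by mouse macrophages, were both called. Ccl6 ran from 29.7 to 422 CPM in B6 (median 236) and from 42.2 to 171.8 CPM in 129X1 (median 97.4), a 2.41-fold lower level (log2 -1.27, SE 0.26, edgeR adjusted p = 0.000535). Ccl9 ran from 23.1 to 368 CPM in B6 (median 213) and from 34.6 to 154.01 CPM in 129X1 (median 73.4), a 2.39-fold lower level (log2 -1.25, SE 0.28, edgeR adjusted p = 0.00118). No 129X1 library lay above the B6 median of either gene. Ccl5, known as a product of T cells and activated macrophages, was the least abundant per kilobase and was not called. It ran from 1.49 to 9.78 CPM in B6 and from 0.573 to 6.60 CPM in 129X1 (log2 -0.36, 95% interval -1.01 to 0.28, edgeR adjusted p = 0.400).

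**Figure D2:**
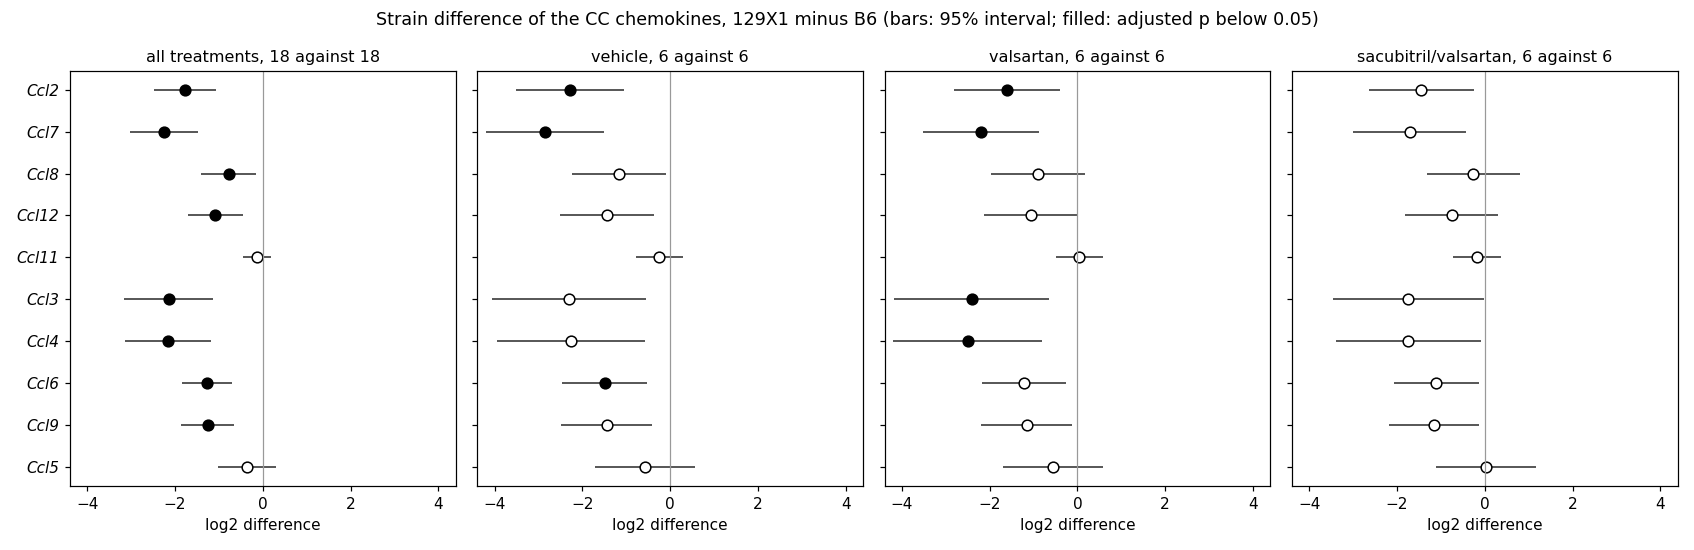
Log2 difference of each CC chemokine between strains (129X1 minus B6) over all treatments and within each treatment, with 95% intervals and filled points where the adjusted p is below 0.05. Filled points number 8, 3, 4 and 0 from left to right, and every one lies left of 0.

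Under vehicle, where no drug was given, 3 of the 10 were called, all lower in 129X1: Ccl7, Ccl2 and Ccl6. The share over all tested genes was 13.5 percent. Ccl7 was 20.2, 30.7 and 28.6 CPM in B6 prophylactic and 76.4, 12.8 and 19.6 CPM in B6 therapeutic vehicle libraries. In 129X1 it was 4.35, 5.08 and 2.10 CPM in prophylactic and 6.03, 5.10 and 3.27 CPM in therapeutic libraries. The strains did not overlap, and Ccl7 was 7.23-fold lower in 129X1 (log2 -2.85, SE 0.65, edgeR adjusted p = 0.00396).

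Ccl2 under vehicle was 18.04, 28.3 and 29.8 CPM in B6 prophylactic and 73.5, 14.8 and 20.6 CPM in B6 therapeutic libraries, against 4.64, 6.60 and 4.50 CPM and 9.17, 8.68 and 4.67 CPM in 129X1. It was 4.84-fold lower (log2 -2.27, SE 0.59, edgeR adjusted p = 0.0111). Ccl6 under vehicle was 118, 422 and 363 CPM in B6 prophylactic and 341, 163.6 and 166 CPM in B6 therapeutic libraries, against 60.6, 105.8 and 89.1 CPM and 114, 115 and 71.5 CPM in 129X1 (log2 -1.49, SE 0.46, edgeR adjusted p = 0.0313). All 3 genes lay below B6 with no overlap, which held for 4.8 percent of tested genes. Replicate 1 of the B6 therapeutic vehicle group was the highest of all 36 libraries for Ccl2, Ccl7, Ccl8 and Ccl12, while its Ccl3 was 3.41 CPM and the lowest of the 6 B6 vehicle libraries. The Ccl6 call was lost without B6 prophylactic 2 or 3, B6 therapeutic 1, 129X1 prophylactic 1, or 129X1 therapeutic 1 or 3 (adjusted p up to 0.0869, log2 -1.70 to -1.27 over 12 fits).

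The other 7 under vehicle had log2 differences from -2.30 for Ccl3 (edgeR adjusted p = 0.0692) and -2.26 for Ccl4 (edgeR adjusted p = 0.0624) to -0.25 for Ccl11. With only the 12 vehicle libraries in the fit 6 chemokines were called, among 2468 genes in all, and with DESeq2 7, among 3314.

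Under valsartan 4 of the 10 were called lower, against 20.9 percent of all tested genes: Ccl7 (log2 -2.20, SE 0.63, edgeR adjusted p = 0.0150), Ccl4 (log2 -2.50, SE 0.82), Ccl3 (log2 -2.41, SE 0.85) and Ccl2 (log2 -1.61, SE 0.57). Ccl4 was 0.999, 24.8 and 14.9 CPM in B6 prophylactic and 1.09, 27.8 and 17.9 CPM in B6 therapeutic libraries, against 0.522, 1.21 and 1.98 CPM and 3.42, 7.21 and 5.37 CPM in 129X1. The first of each B6 trio lay within the 129X1 range and the other 4 above it. None of the 10 was free of overlap under valsartan (3.02 percent of tested genes were), or under sacubitril/valsartan (2.98 percent), or over all libraries (0.832 percent).

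The calls under valsartan turned on single libraries. Without B6 therapeutic valsartan replicate 1, 8 of the 10 were called, all but Ccl5 and Ccl11. Over the 12 fits that each left out 1 valsartan library, 2406 to 4325 genes were called in all, against 3898 with every library. The calls of Ccl2 and Ccl3 were lost without any of the 12 valsartan libraries other than replicate 1 of the B6 groups (edgeR adjusted p up to 0.126 and 0.0983). That of Ccl4 was lost without B6 prophylactic 2, B6 therapeutic 2 or 3, 129X1 prophylactic 1 or 2, or 129X1 therapeutic 1 or 3 (adjusted p up to 0.0698), and that of Ccl7 without B6 therapeutic 3 (adjusted p = 0.0606). Under sacubitril/valsartan none was called by edgeR, with 6.26 percent of all tested genes called. Of the 10, 6 had an unadjusted p below 0.05 by edgeR, as did 19.8 percent of all tested genes. DESeq2 called Ccl7 there, among 1818 genes in all. With the title number as a covariate 6 were called there (1660 genes in all), and with 3 runs of that number as a factor 4 (1257 genes). The log2 differences there ran from -1.74 for Ccl3 and Ccl4 to 0.03 for Ccl5. Without replicate 3 of the 129X1 prophylactic group, the library with 28.8 CPM of Ccl2, Ccl2 (log2 -1.99, edgeR adjusted p = 0.0480) and Ccl7 (log2 -2.24, edgeR adjusted p = 0.0445) were called.

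Leukocyte markers moved with strain beside the chemokines, in a comparison that called 33.8 percent of all tested genes. Of 12 macrophage and monocyte markers 7 were called lower in 129X1 and none higher, with Fcgr1 at log2 -2.40 and Adgre1 at -1.09. Their summed level was 263 to 1970 CPM in B6 (median 1455) and 380 to 1155 CPM in 129X1 (median 759), and none of them was at 0 in every library. Cd163 of this list went the other way within the title-number runs described below. It was at log2 0.17, 0.91 and 0.42 in runs 1, 2 and 3, and was called in none of them. All 4 neutrophil markers were called lower, S100a8 at log2 -3.13, and their summed level was 14.2 to 384 CPM in B6 (median 146.4) and 5.04 to 74.6 CPM in 129X1 (median 28.8). Of the 7 T cell markers none was called. The tissue around the artery moved as well: 4 of 4 brown fat and 3 of 5 adipocyte markers were called higher in 129X1, and 4 of 5 Schwann cell markers lower. Of the other lists, 3 of 4 B cell, 1 of 5 thymus and 1 of 5 skeletal muscle markers were called higher. Called lower were 2 of 4 eosinophil, 1 of 4 mast cell, 1 of 4 thyroid, 1 of 5 smooth muscle and 1 of 4 endothelial markers, and of 4 sympathetic neuron and 4 fibroblast markers none was called. Lists with 1 of 4 or 1 of 5 markers called lie below the share of all tested genes.

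With the macrophage and monocyte score as a covariate, 1 of the 10 chemokines was called between strains, Ccl7 (log2 -0.84, edgeR adjusted p = 0.0348). In that fit Ccl2 was -0.46, Ccl3 -0.30, Ccl4 -0.46 and Ccl6 -0.11 on the log2 scale, and Ccl8 changed sign to 0.49 (edgeR adjusted p = 0.0843). With scores for skeletal muscle, adipocytes and Schwann cells as covariates none was called by edgeR, and the differences ran from -1.38 for Ccl7 to 0.22 for Ccl11. These fits called 3977 and 3980 genes in all. In an additive fit of the 20 libraries with Rag1 below 10 CPM, 9 of the 10 were called, Ccl5 among them (log2 -1.36, edgeR adjusted p = 0.00540), and 5811 genes in all. The part of cell number, cell type or surrounding tissue in the strain difference was not tested. The fits with scores cannot measure it, because each score holds genes that were themselves called between strains.

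A second division ran along the numbers in the library titles. Sorted by that number, the libraries form 3 runs that each hold B6 and then 129X1 mice: 12 libraries in run 1, 8 in run 2 and 16 in run 3. The labels do not say what the number stands for, and the runs were drawn after the data had been seen. With run as a factor, 4 chemokines were lower in run 1 than in runs 2 and 3, against 4.53 percent of all tested genes, and none differed between runs 2 and 3, where edgeR called 0 percent of genes (195 genes at an unadjusted p below 0.05). The 4 were Ccl3 (log2 -2.71, SE 0.37, edgeR adjusted p = 8.84e-05), Ccl4 (log2 -2.60, SE 0.33, edgeR adjusted p = 4.66e-05), Ccl9 (log2 -1.32, SE 0.25) and Ccl6 (log2 -1.11, SE 0.25).

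In B6, Ccl3 was 1.04 to 8.60 CPM in the 6 libraries of run 1 (median 3.67) and 12.8 to 55.5 CPM in the 12 later ones (median 30.6). Ccl4 was 0.999 to 6.18 CPM in run 1 and 8.27 to 35.9 CPM later. Neither overlapped in B6, which held for 0.633 percent of tested genes in that direction. In 129X1 Ccl3 was 0.286 to 4.88 CPM in run 1 and 2.501 to 16.2 CPM later, with overlap, and Ccl6 (42.2 to 64.5 CPM against 68.8 to 171.8 CPM) and Ccl9 (34.6 to 56.5 CPM against 58.6 to 154.01 CPM) did not overlap there, as for 0.225 percent of tested genes. The monocyte chemoattractants Ccl2, Ccl7, Ccl8 and Ccl12 and also Ccl5 and Ccl11 were not called between runs (log2 -1.09 to -0.20).

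**Figure D3:**
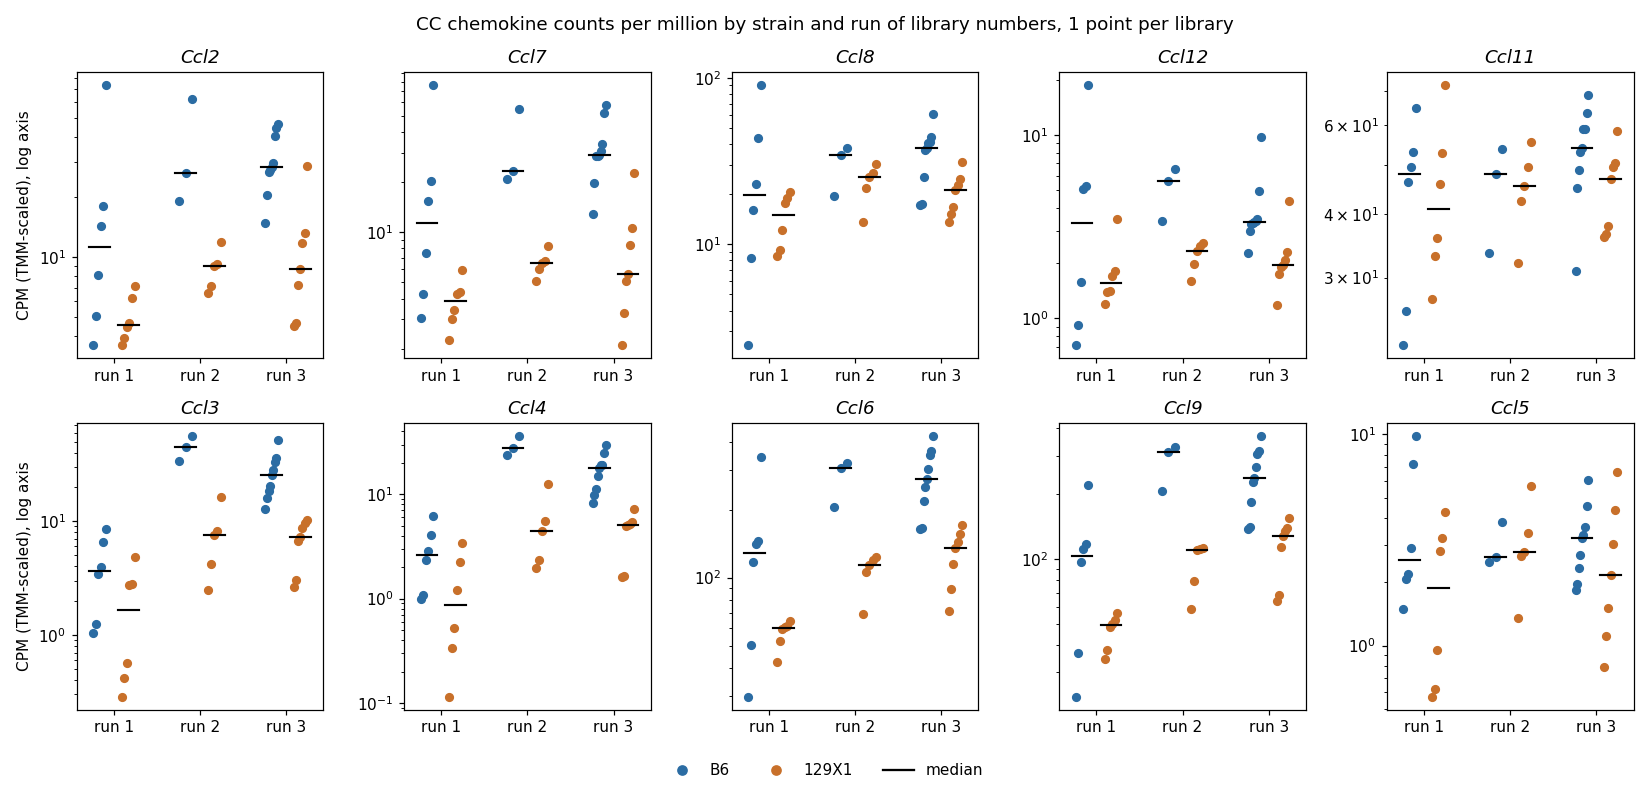
Level of each CC chemokine in CPM (log axis) by run of library numbers, with B6 in blue and 129X1 in orange, 1 point per library and a line at the median. The B6 libraries of run 1 lie below all later B6 libraries for Ccl3 and Ccl4, and B6 medians exceed 129X1 medians in each run for Ccl2, Ccl3, Ccl4, Ccl6, Ccl7, Ccl8, Ccl9 and Ccl12.

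Neutrophil markers and some macrophage markers moved with the runs too. All 4 neutrophil markers were called lower in run 1, S100a8 at log2 -2.78, with summed levels in B6 of 14.2 to 75.4 CPM in run 1 and 117.1 to 384 CPM later. Of the 12 macrophage and monocyte markers 6 were called lower, among them Cd14 at log2 -1.65 and Cd68 at -1.45. The other 6 did not pass, with log2 differences of -0.67 for Mrc1, -0.54 for C1qa, -0.38 for Fcgr1 and Lyve1, -0.22 for Ly6c2 and -0.16 for Cd163. Their part in the run difference was not tested.

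The strain difference was present within runs. Within run 1, 2 chemokines were called lower in 129X1, Ccl7 (log2 -2.49) and Ccl2 (log2 -1.97), against 9.16 percent of all tested genes. Within run 2 and within run 3, 6 were called lower, against 19 and 12.8 percent of genes: Ccl2, Ccl3, Ccl4, Ccl6, Ccl7 and Ccl9 in both. For Ccl3 the strain difference was -1.11 in run 1, -2.49 in run 2 and -2.00 in run 3 (log2). A test of whether the strain difference itself varied between run 1 and the later runs called none of the 10 by edgeR (adjusted p from 0.486) and 0.00537 percent of all genes. With run as a factor in the 12-group fit, 8 of the 10 were called over all treatments, where 6380 of the 18628 genes were called, and 6 under vehicle, where 3108 were. Under valsartan the calls went from 4 to 2, Ccl4 and Ccl7 (3789 genes called), and under sacubitril/valsartan from 0 to 4, Ccl3, Ccl4, Ccl6 and Ccl9 (1257 genes called).

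No chemokine passed the threshold in a drug comparison. In each of the 3 drug comparisons, averaged over both strains and both regimens (12 libraries against 12), edgeR called 0 percent of all tested genes. Genes at an unadjusted p below 0.05 numbered 293 for sacubitril/valsartan minus vehicle, 453 for valsartan minus vehicle and 491 for sacubitril/valsartan minus valsartan, none of them a chemokine of the 10. DESeq2 called 10, 2 and 17 genes, again none of the 10.

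For sacubitril/valsartan against vehicle the differences ran from -0.56 for Ccl5 (95% interval -1.35 to 0.23) to 0.74 for Ccl4 (95% interval -0.39 to 1.87) on the log2 scale. Ccl2 was 4.50 to 73.5 CPM under vehicle (median 12.0), 3.61 to 46.9 CPM under valsartan (median 9.46) and 3.59 to 62.6 CPM under sacubitril/valsartan (median 13.1). These sets overlap almost throughout, and the Ccl2 difference was 0.29 for sacubitril/valsartan (95% interval -0.52 to 1.11) and 0.05 for valsartan (95% interval -0.76 to 0.87) against vehicle. For valsartan against vehicle the 10 ran from -0.28 for Ccl12 to 0.25 for Ccl4. Sacubitril/valsartan and valsartan differed by -0.53 for Ccl5 to 0.53 for Ccl3, where the interval of Ccl3 was -0.64 to 1.70. These intervals do not show that the treatments act alike. A 2-fold change, up or down, lies inside an interval given here for each of Ccl2, Ccl3, Ccl4 and Ccl5. Ccl11 had the narrowest intervals, at -0.35 to 0.38 for sacubitril/valsartan and -0.28 to 0.45 for valsartan against vehicle.

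**Figure D4:**
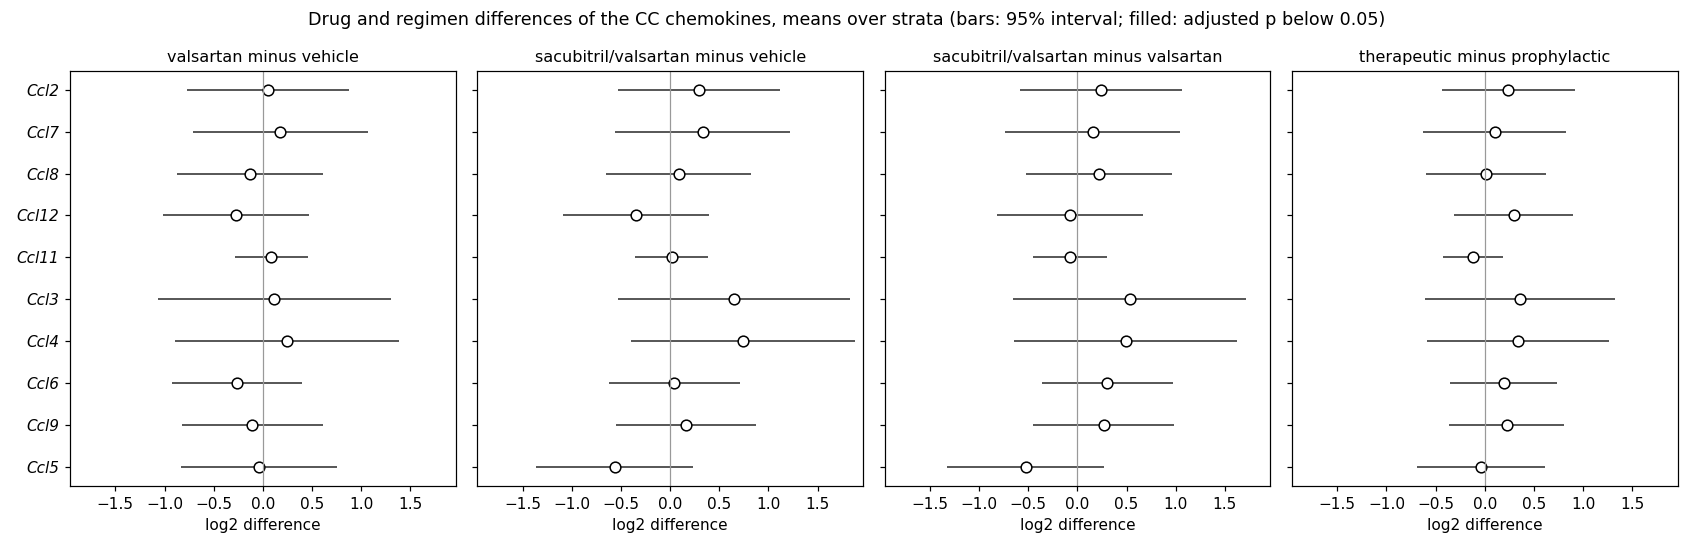
Log2 difference of each CC chemokine for the 3 drug comparisons and for regimen, as means over strata, with 95% intervals and filled points where the adjusted p is below 0.05. No point is filled and every interval includes 0.

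Within single strata, 3 libraries against 3, the 12 drug comparisons called no gene (0 percent, with 101 to 2400 genes at an unadjusted p below 0.05 by edgeR and 0 to 48 called by DESeq2). The largest differences were in 129X1 prophylactic mice. Ccl4 there was 0.522, 1.21 and 1.98 CPM under valsartan and 2.23, 12.7 and 5.22 CPM under sacubitril/valsartan. The difference (log2 2.44, 95% interval 0.04 to 4.83) had an unadjusted edgeR p of 0.0466 and an edgeR adjusted p of 0.805. In this comparison 866 genes, 4.65 percent of those tested, had an unadjusted p below 0.05 by edgeR. Ccl4 here was the only case among the 10 chemokines in the 12 comparisons with an unadjusted p below 0.05 by edgeR. Under vehicle Ccl4 was 0.115, 2.32 and 1.61 CPM, a set that overlaps that of sacubitril/valsartan (log2 2.29, 95% interval -0.08 to 4.67). Ccl2 was 4.64, 6.60 and 4.50 CPM under vehicle and 3.90, 9.02 and 28.8 CPM under sacubitril/valsartan, where replicate 3 is the high one (log2 1.41, 95% interval -0.26 to 3.07). The first vehicle library belongs to run 1, as do the first sacubitril/valsartan library and the first and second valsartan libraries.

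No chemokine passed between regimens either. Therapeutic minus prophylactic, 18 libraries against 18, edgeR called 0 percent of genes (599 at an unadjusted p below 0.05 and 21 called by DESeq2), and none of the 10 in either. The chemokines ran from -0.12 for Ccl11 to 0.36 for Ccl3 on the log2 scale, with the interval of Ccl3 at -0.60 to 1.32. Ccl6 was 42.2 to 422 CPM under the prophylactic regimen (median 118) and 29.7 to 350 CPM under the therapeutic one (median 148). The 5 tests of whether a difference depends on another factor, namely each drug against vehicle by strain and by regimen, and strain by regimen, likewise called 0 percent of genes. The largest of these among the chemokines were 1.33 for Ccl3 (valsartan by regimen) and 1.14 for Ccl7 (sacubitril/valsartan by strain, 95% interval -0.62 to 2.90).

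Several chemokines followed each other closely from library to library. After each group's mean had been removed, log2 CPM of Ccl3 and Ccl4 had a Pearson r of 0.991 over the 36 libraries, Ccl6 and Ccl9 0.982, Ccl2 and Ccl7 0.964, and Ccl8 and Ccl12 0.902. Each of these pairs lies within 1 genomic cluster, but Ccl2 had r of 0.883 with Ccl9 and 0.878 with Ccl6 of the other cluster, and Ccl5 had 0.016 with Ccl3 of its own. Over all 45 pairs r ran from -0.27 to 0.991 (median 0.702), and Ccl5 was the exception, with r between -0.27 and 0.17 to the other 9. All values of a library share its depth, its scaling and its mix of tissue, so these are descriptions and carry no test.

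By the same measure, among 15308 genes compared, Ccl4 was the most alike to Ccl3, followed by Il1rn (r = 0.987), the antagonist of the interleukin-1 receptor, and Fpr2 (r = 0.979), a formyl peptide receptor of phagocytes. Ccl4 had Il1rn (r = 0.977) and Il1b (r = 0.976) after Ccl3. Ccl6 was followed by the macrophage gene Adgre1 (r = 0.972) and Fcgr2b (r = 0.969) after Ccl9, and Ccl9 was most alike to Alox5ap (r = 0.988), which serves leukotriene synthesis, with Ms4a6d (r = 0.981) after Ccl6. Ccl8 was most alike to Gpr34 (r = 0.947) and to C1qa (r = 0.938), a complement gene of macrophages, and Ccl12 to Fcgr1 (r = 0.912), a high-affinity IgG receptor. Ccl2 was followed after Ccl7 by Emp3 (r = 0.941) and Emp1 (r = 0.936), and Ccl7 after Ccl2 by Slc39a1 (r = 0.945) and Ifitm2 (r = 0.939). The third gene was Cysltr1 (r = 0.934) for Ccl8, Epsti1 (r = 0.872) for Ccl5 and Slc16a9 (r = 0.922) for Ccl11, and Ccl12 had Gpr39 (r = 0.906) and Clec11a (r = 0.903). Ccl5 was most alike to Ccl22 (r = 0.892) and Ccr7 (r = 0.890), and Ccl11 to Efemp1 (r = 0.940) and Plpp3 (r = 0.926), both expressed by mesenchymal cells.

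Set against marker lists, the chemokines differed in the list with the highest r, but the lists overlapped. Ccl6 and Ccl9 had r of 0.958 and 0.937 with the macrophage and monocyte list. Ccl3 and Ccl4 had 0.961 and 0.958 with the neutrophil list, where Ccl11 had 0.316. With the fibroblast list Ccl8 had 0.909, Ccl12 0.858, Ccl11 0.854 and Ccl7 0.852, followed by Ccl6 at 0.799 and Ccl2 at 0.796. Ccl8 had nearly as high an r with the macrophage and monocyte list (0.896), and Ccl11 a higher one with the mast cell list (0.904). Ccl5 had 0.585 with the T cell list and 0.793 with an eosinophil list whose summed level did not exceed 4.45 CPM, and the other 9 had -0.669 to -0.221 with the T cell list.

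**Figure D5:**
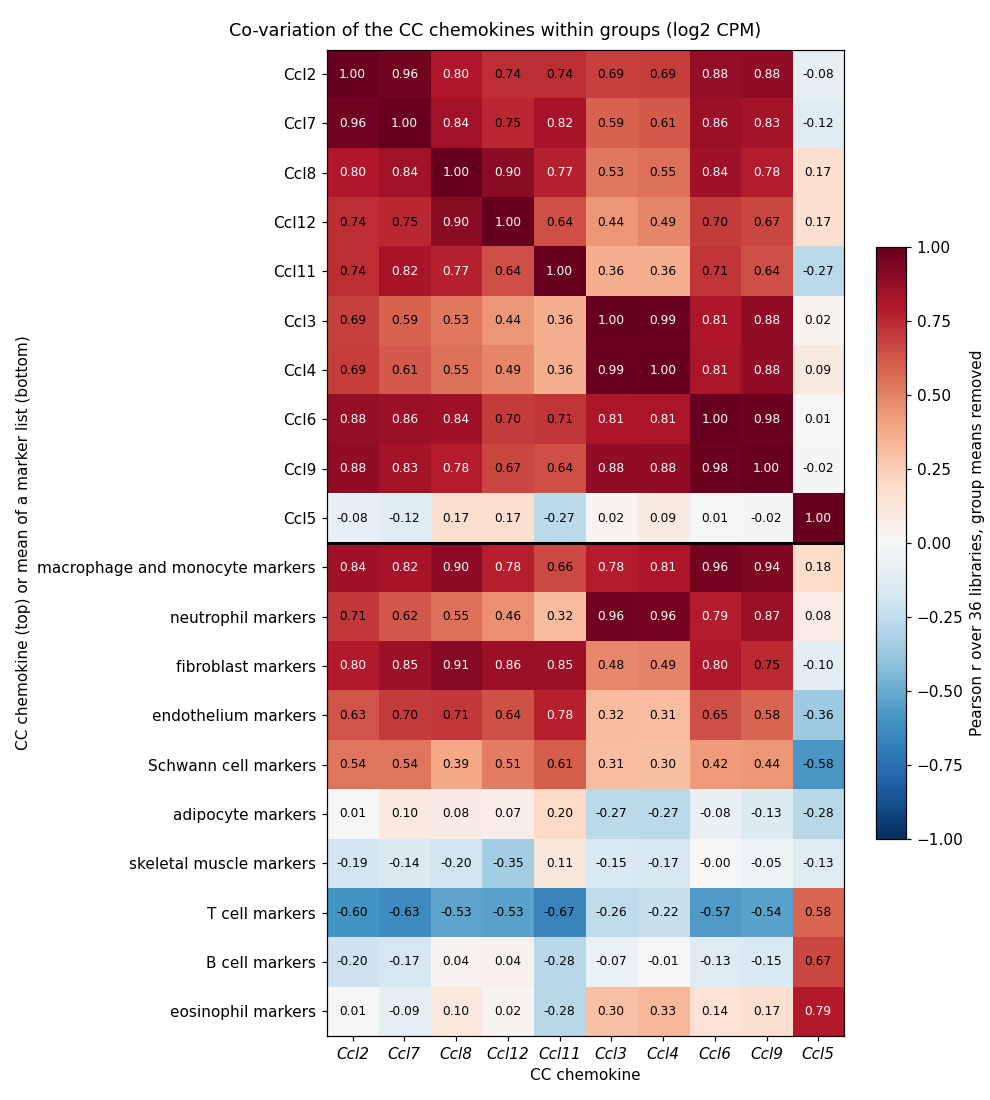
Pearson r of log2 CPM over 36 libraries with group means removed, between the CC chemokines (upper block) and between them and the mean of marker lists (lower block), from -1 in blue to 1 in red. The pairs Ccl3 and Ccl4, Ccl6 and Ccl9, and Ccl2 and Ccl7 are the darkest cells, and Ccl5 is pale against all other chemokines.

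Receptors of these chemokines were tested from a list of 9, of which 7 passed the filter. Between strains 3 of these 7 were called, all lower in 129X1, a share not far from the 33.8 percent of all tested genes called in this comparison. They were Ccr3, the eotaxin receptor (log2 -1.47, edgeR adjusted p = 0.00260), Ccr2, the monocyte receptor of Ccl2 and Ccl7 (log2 -0.86, edgeR adjusted p = 0.00734), and Ccr1 (log2 -1.12, edgeR adjusted p = 0.0159). Ccr2 ran from 11.2 to 152 CPM in B6 (median 66.8) and from 16.5 to 70.4 CPM in 129X1 (median 34.2).

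Of 10 other CC chemokines 8 passed the filter, and 4 were called lower and 1 higher in 129X1, against 33.8 percent of all tested genes called. Ccl28, a mucosal chemokine, was at 0.968 CPM in the median B6 library and 0.0172 CPM in the median 129X1 library (log2 -4.10, edgeR adjusted p = 6.33e-08). Ccl19, a ligand of CCR7, fell from a median of 4.36 to 1.23 CPM (log2 -1.56), and Ccl20 (log2 -2.53) and Ccl22 (log2 -1.14) were also lower. Ccl27a was higher (log2 0.34, edgeR adjusted p = 0.00221), but it belongs to a family of near-identical copies among which reads may be split, so its value is uncertain. Ccl21a, from another such family, had no count in any library.

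Of 16 inducers and transcriptional regulators of these genes 13 passed the filter. Over all treatments 12 were called lower in 129X1 and none higher, against 33.8 percent of all tested genes called in either direction. Il6 had the largest difference (log2 -3.11, edgeR adjusted p = 6.58e-05), at 0.166 to 18.1 CPM in B6 and 0.0423 to 1.90 CPM in 129X1. Nfkbiz, a co-regulator of NF-kappaB target genes, was at log2 -0.69, Il4ra, which is part of the interleukin-4 receptor, at -0.69, and Irf1, an interferon-induced transcription factor, at -0.37. Il1b, which encodes interleukin-1 beta, was at -1.92. Of the 13, 4 were called lower under vehicle, 9 under valsartan and 0 under sacubitril/valsartan. The shares of all tested genes called there were 13.5, 20.9 and 6.26 percent. In the 3 drug comparisons and for regimen no gene of the 3 lists was called by edgeR.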

How the data were processed

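RNA-seq was made from 36 ligated left carotid arteries with Trizol, RNeasy Micro columns and a stranded mRNA kit, per the labels' protocols. Reads were trimmed with Trimmomatic 0.36, aligned to GRCm38 with STAR 2.5.2b and counted per gene with featureCounts of Subread 1.5.0p3, per the submitters' processing notes, the same build serving both strains. The annotation release and the strand setting are not given in the sources used here. The authors deposited raw counts for 49568 symbols in 36 columns, each matched to a sample by its title, and no other sample columns were present. Libraries of a group are separate mice by the labels and differed by more than sampling noise.

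Starting from these counts, 1 edgeR 4.0.16 quasi-likelihood fit (R 4.3.3, limma 3.58.1) of 12 group means was made over all 36 libraries, after filterByExpr (18628 symbols) and TMM scaling (factors 0.82 to 1.13). It had 24 residual and 2.36 prior degrees of freedom and a biological coefficient of variation of 0.463. P values were adjusted by Benjamini-Hochberg within each of 25 comparisons at a threshold of 0.05. Standard errors derive from the quasi-likelihood F, and correlations used log2 CPM with a prior count of 2. Levels per kilobase used merged exon lengths of GENCODE M21.

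The 10 members, the 3 lists of receptors, other CC chemokines and inducers, and 16 marker lists were chosen with earlier results of these data known. All 10 members were described, and from the 3 lists up to 4 called genes with the smallest p between strains were named. Ccl22 and Il1b were added after their values were seen, as were the TATA box and the number runs. For each member the most alike genes were taken at a mean of at least 1 CPM. Alternatives were DESeq2 (1.42.0) and its size factors, no filter, marker scores or the title number as covariates, subsets of libraries and leaving out each library. The tests were also tried on simulated counts with known changes, drawn with the mean levels and spread of these data. Each gene was drawn independently around 1 mean, and 18428 of the 18628 genes were left unchanged. Of 50 genes given a log2 change of 1, 60 percent were called between strains. For sacubitril/valsartan against vehicle it was 66 percent. The simulated counts lack the tissue differences that genes of a library share and the broad strain difference. These shares therefore do not give the rate at which changes of the 10 chemokines would be called. The result for 1 receptor gene is not reported here.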

Additional observations from a re-analysis of the deposited data

Results flagged for a closer look

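In 60 sets of 6 libraries (each of the 10 genes in each strain and treatment, both regimens together), 8 held a library far from the rest by Dixon's criterion at 95%. Its rate of about 1 in 20 sets by chance holds for independent, normally distributed values. The ratio was taken on CPM, and correlated genes share the same libraries, so the 8 cannot be set against that rate. In B6 under vehicle, therapeutic replicate 1 was far above the other 5 for Ccl2 (73.5 CPM), Ccl7 (76.4 CPM), Ccl8 (90.6 CPM) and Ccl12 (18.7 CPM), all of the monocyte chemoattractant cluster. In 129X1 under sacubitril/valsartan, prophylactic replicate 3 was far above for Ccl2 (28.8 CPM) and Ccl7 (22.8 CPM). In 129X1 under valsartan, prophylactic replicate 1 was far above for Ccl12 (3.47 CPM). In B6 under valsartan, prophylactic replicate 1, the library with 1591 CPM of Rag1, was far above for Ccl5 (9.78 CPM). The cause was not tested.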

How the results depend on the processing

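Of the 10 chemokines, 8 were called between strains over all treatments. The number was again 8 with DESeq2, with its size factors, with the title number or number run as covariate, and without both B6 valsartan libraries of run 1. It was 7 without a filter, 9 among libraries low in Rag1 and 7 to 8 on leaving out 1 library, but 1 with the macrophage score and 0 with the scores of muscle, adipocytes and Schwann cells. With these scores the genes called in all came to 3977 and 3980 against 6296. Without both B6 valsartan libraries of run 1 they rose to 8799. With the macrophage score the sign changed for Ccl8 over all treatments (0.49 on the log2 scale), and for Ccl2 (0.0083) and Ccl3 (0.37) under valsartan. None of these was called with that score, so no reversed difference was shown. The cause was not tested.

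Under vehicle, the 3 calls became 6 with the title number, 6 with the number run, 6 with only the vehicle libraries, 7 with DESeq2, 8 without both B6 valsartan libraries, 1 with the macrophage score and 0 with the tissue scores. Genes called in all, 2522, were 1012 with the tissue scores, 1458 with the macrophage score, 715 in libraries low in Rag1 and 1440 to 2829 on leaving out 1 library. They were 3580 without both B6 valsartan libraries. Under valsartan, the 4 calls became 2 without a filter, 2 with the number run, 6 in libraries low in Rag1, 8 without both B6 libraries, and 0 with the macrophage score, with the tissue scores and with only the valsartan libraries, and ran from 0 to 8 on leaving out 1 library. Genes called in all, 3898, were 2139 with only those libraries, 1326 in libraries low in Rag1 and 2406 to 4325 on leaving out 1 library. They were 4810 without both B6 libraries. Under sacubitril/valsartan, 0 calls became 6 with the title number, 4 with the number run, 4 without both B6 valsartan libraries, 1 with DESeq2 and 0 to 2 on leaving out 1 library. Genes called in all, 1166, were 2184 without both B6 libraries, 1818 with DESeq2, 1859 with only those libraries and 296 in libraries low in Rag1.

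In drug, regimen and interaction comparisons no chemokine was called under any alternative run. Genes called there by DESeq2, against 0 by edgeR, numbered 21 for regimen, 10 for sacubitril/valsartan and 2 for valsartan against vehicle, 17 between the drugs, 155 over the strata and 43 over the interactions. Regimen gave 6 in libraries low in Rag1, 1 with either set of scores and 0 to 1 on leaving out 1 library. Strata gave 1 with the tissue scores and 0 to 2 on leaving out 1 library, and interactions 1 with the tissue scores, 2 with the macrophage score, 2 with the title number and 0 to 1 on leaving out 1 library. The number runs and the fits without both B6 libraries were added after the data had been seen. The fit of libraries low in Rag1 was not run for strata and interactions. For strain over all treatments, for regimen and for strain by regimen the libraries compared are all 36, so restricting the fit to them is the reported fit. No paired analysis was possible because the labels tie no mouse of one group to a mouse of another, and the fits with the number run as a factor block on runs of libraries, not on pairs.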
